A study of Mus musculus with 32 samples.

Results

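The livers of 4 female Cyp2c70 KO mice given SC-435 in the diet were compared with those of 4 chow-fed females of the same genotype, 8 of the 32 mice sequenced in the series. All 8 were C57BL/6 mice killed at 12 weeks of age without a fast. Both groups carried a deletion in Cyp2c70 that takes out its second exon, made with CRISPR-Cas9 and bred on from 1 founder line. SC-435 is an inhibitor of the ileal bile acid transporter (IBAT) and made up 0.006% of the diet, or about 11 mg/kg/day. The labels put the diet change 3 weeks after weaning. Elsewhere the study puts it at weaning, so the length of treatment differs between these sources. WT females and male KO mice of the same strain, age and diets, 4 mice per diet each, served for comparison. Messenger RNA was selected with poly-T beads from whole frozen liver. The comparison covers every gene with enough reads, 16332 of the 54532 genes in the table. Whole liver mixes cell types, so that fewer cells of a type and less RNA per cell cannot be told apart in any result given here.

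Hepatocytes make bile acids from cholesterol, and most of the acid secreted into bile is taken up again in the ileum by IBAT, the product of Slc10a2, and returned to the liver. Returning bile acids activate the nuclear receptor FXR (Nr1h4), which lowers their own synthesis and raises their export. Blocking IBAT therefore drains sterol from the liver, and low sterol in the endoplasmic reticulum releases SREBP2, the factor that switches on cholesterol synthesis. Cyp2c70 makes the hydrophilic muricholic acids of mice, and mice without it carry the more hydrophobic bile acids found in humans.

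Cyp2c70, which lacks its second exon in these mice, was read at 134 to 182 CPM (counts per 1e6 reads) in the 8 KO livers and 425 to 873 CPM in the 8 WT female livers, and within KO females its log2 fold change was -0.23 ± 0.09 (adjusted p = 0.0942). Reads of its remaining exons can still be counted, so that a level above 0 in KO livers does not go against the labels. The libraries held between 38453252 and 44771350 counted reads each. Levels are given in CPM after TMM scaling over the 16 female libraries, in the order of replicates 1, 2, 3 and 4, and a log2 fold change is SC-435 against chow with its standard error. With SC-435, 1398 genes rose and 1508 fell by edgeR's quasi-likelihood test at a Benjamini-Hochberg adjusted p under 0.05, which is 8.56% and 9.23% of the genes tested. Of these, 344 rose and 604 fell by more than 2-fold, or 2.11% and 3.70% (5.80% together), and 268 and 546 of them were protein-coding. The 4 mice of one diet lay wholly above the 4 of the other in 1821 genes that were higher with SC-435 and 1763 that were lower, 11.1% and 10.8% of those tested. Over all genes the log2 fold changes had a median of -0.02. In the genes named below as having risen or fallen the diets did not overlap unless an overlap is given. With library size as the only scaling the median was -0.18, and 826 genes rose and 3202 fell at any fold, or 285 and 929 by more than 2-fold.

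Chow-fed replicate 4 stood apart from its group. Principal components of the 8 libraries were computed on the genes with the highest variance among them, not on all genes. On the first, which took 73.5% of the variance of those genes, chow-fed replicate 4 scored 2.16. The other 3 chow-fed mice scored between -36.8 and -31.5 and the SC-435-fed mice between 21.3 and 27.9. Among the 2906 genes that passed the test, replicate 4 was the chow-fed mouse nearest to the SC-435 mean in 1996, or 68.7%. Without it 1505 genes were called at more than 2-fold, against 948 with it, and 932 of the 948 were among them. Leaving out chow replicate 2 or SC-435 replicate 2 lowered the number to 583 or 598. At any fold, 2906 genes passed with all mice, 4403 without chow replicate 4 and 1429, 1584, 1287 and 1539 without chow replicate 2 and SC-435 replicates 1, 2 and 3.

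**Figure D1:**
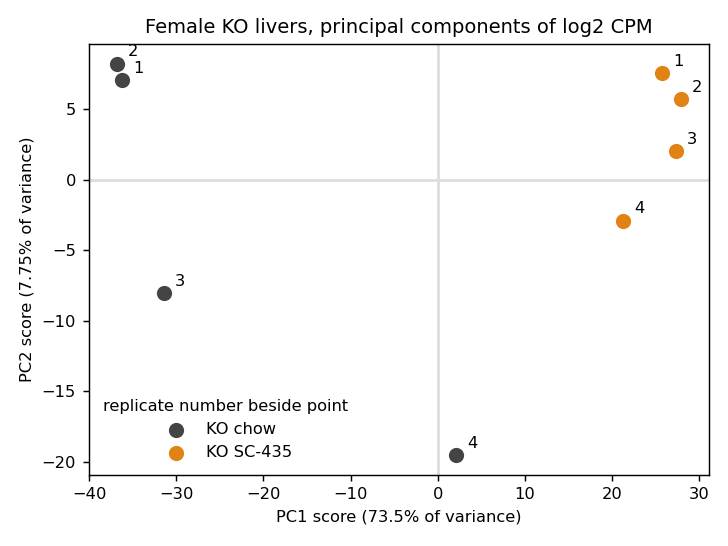
Scores of the 8 female KO livers on the first and second principal components of log2 CPM of the genes with the highest variance, with the replicate number beside each point. The 4 SC-435-fed mice lie together on the right, chow-fed replicates 1 to 3 on the left, and chow-fed replicate 4 at 2.16 on the first component.

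The 10 protein-coding genes with the largest rises included 5 sulfotransferases. Fam19a2, the largest rise, which encodes a small secreted protein best known from the brain, measured 0.141, 0.101, 0.0420 and 0.150 CPM in the chow-fed mice and 15.0, 16.3, 14.1 and 12.0 CPM in the SC-435-fed mice, with 2 to 7 reads in the chow-fed libraries and 512 to 684 with SC-435 (log2 fold change 7.04 ± 0.25, adjusted p = 6.90e-07). Chow-fed replicate 4 was the highest of its group and replicate 3 the lowest. Sult2a1, a sulfotransferase for bile acids and steroids (ENSMUSG00000078798, chr7:13796246-13837409 of mm10, minus strand), measured 3.68, 2.54, 0.692 and 3.87 CPM in the chow-fed mice and 277, 413, 235 and 90.8 CPM in the SC-435-fed mice, 94.7-fold higher on average (log2 fold change 6.57 ± 0.60, adjusted p = 0.000795). The lowest SC-435 mouse for Sult2a1, replicate 4, still lay far above the highest chow-fed mouse. Nfe2, a transcription factor best known from platelets and red cells, measured 0.945, 1.53, 0.755 and 2.87 CPM in the chow-fed mice and 39.2, 24.4, 22.2 and 16.4 CPM in the SC-435-fed mice (log2 fold change 4.09 ± 0.41, adjusted p = 0.001). Elovl3, which extends fatty acid chains, measured 0.161, 0.201, 0.566 and 1.55 CPM in the chow-fed mice and 11.2, 4.51, 7.03 and 15.0 CPM in the SC-435-fed mice (log2 fold change 3.98 ± 0.63, adjusted p = 0.00444). Srgap3, a GTPase-activating protein, measured 0.663, 1.17, 1.24 and 3.05 CPM in the chow-fed mice and 22.9, 19.5, 19.8 and 17.0 CPM in the SC-435-fed mice (log2 fold change 3.72 ± 0.37, adjusted p = 0.001). In each of these 5 genes the highest chow-fed mouse was replicate 4. Further large rises, Sult2a5, Sult2a3, Sult2a2, Sult3a2 and Cyp8b1, are given with their pathways.

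The 10 largest falls, taken under the same conditions, were in genes of varied function. Gpnmb, a glycoprotein of lipid-laden macrophages, measured 10.01, 51.8, 11.4 and 3.05 CPM in the chow-fed mice and 0.194, 0.334, 0.373 and 0.423 CPM in the SC-435-fed mice (log2 fold change -5.83 ± 0.89, adjusted p = 0.00396). Chow-fed mice differed widely in this gene, with replicate 2 the highest. Sprr1a, a cornified envelope protein, measured 6.05, 13.9, 4.09 and 1.27 CPM in the chow-fed mice and 0.194, 0.0716, 0.160 and 0.188 CPM in the SC-435-fed mice (log2 fold change -5.34 ± 0.74, adjusted p = 0.0027). Cpe, a carboxypeptidase that processes peptide hormones, measured 27.3, 26.5, 46.8 and 1.598 CPM in the chow-fed mice and 0.823, 0.812, 0.852 and 0.493 CPM in the SC-435-fed mice (log2 fold change -5.09 ± 0.82, adjusted p = 0.00469). Chow-fed replicate 4 was closer to the SC-435-fed mice than to its own group. Ly6d, a surface protein of epithelial and B cells, measured 12.6, 60.8, 78.2 and 3.92 CPM in the chow-fed mice and 1.14, 2.86, 3.09 and 1.46 CPM in the SC-435-fed mice (log2 fold change -4.18 ± 0.84, adjusted p = 0.0103), again with replicate 4 the lowest of the chow-fed mice. Ptgds, a prostaglandin D synthase, measured 27.3, 32.3, 36.7 and 19.1 CPM in the chow-fed mice and 3.94, 2.12, 3.17 and 1.596 CPM in the SC-435-fed mice, and fell by 3.41 on the log2 scale (adjusted p = 0.000578). Inava, a protein of cell junctions, measured 4.96, 3.30, 2.79 and 1.90 CPM in the chow-fed mice and 0.145, 0.263, 0.186 and 0.399 CPM in the SC-435-fed mice (log2 fold change -3.68 ± 0.38, adjusted p = 0.00108). The calcium-binding Cib3 had a log2 fold change of -3.70 ± 0.56 (adjusted p = 0.00376) and the repair protein Rad51b -3.55 ± 0.53 (adjusted p = 0.00365).

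All 18 listed enzymes of cholesterol synthesis rose with SC-435. All 18 had passed the filter on low counts. Their median log2 fold change was 2.57, and over all genes 8.56% rose and the median was -0.02. The number was 18 in each of the alternative settings tried, and the median lay between 2.37 and 3.15 in them. In none of the 18 did the 2 diets overlap, while 11.1% of all genes lay wholly higher with SC-435. Hmgcs1, a synthase of the early pathway (ENSMUSG00000093930, chr13:119690379-119708260 of mm10, plus strand), measured 138, 233, 208 and 482 CPM in the chow-fed mice and 3028, 2559, 2378 and 2490.0 CPM in the SC-435-fed mice (log2 fold change 3.30 ± 0.34, adjusted p = 0.00108). Chow-fed replicate 4 was the highest chow-fed mouse for it, and still lay far below every treated mouse.

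Going down the pathway, the first step Acat2 had a log2 fold change of 2.03 ± 0.23, and the mevalonate enzymes Mvk, Pmvk, Mvd and Idi1 had 2.11 ± 0.29, 2.25 ± 0.34, 3.05 ± 0.40 and 3.13 ± 0.43. Fdps, which makes farnesyl diphosphate and has processed copies in the genome that may share its reads, had 3.08 ± 0.44. Fdft1, which commits the pathway to sterols, had 2.29 ± 0.21, the squalene oxidase Sqle 2.81 ± 0.40 and the cyclase Lss 3.01 ± 0.33. Of the enzymes that trim lanosterol, Cyp51 had 2.73 ± 0.32, Tm7sf2 1.55 ± 0.24, Msmo1 3.21 ± 0.39, Nsdhl 2.44 ± 0.36 and Hsd17b7 2.70 ± 0.32. Among the last steps, Ebp had the smallest rise of the 18. The values were 0.95 ± 0.15 for Ebp, 1.602 ± 0.32 for Sc5d and 2.40 ± 0.43 for Dhcr7. Adjusted p in the 18 lay between 0.000795 for Fdft1 and 0.00999 for Sc5d. Sqle measured 24.7, 42.6, 33.2 and 108 CPM in the chow-fed mice and 393, 355, 345 and 367 CPM in the SC-435-fed mice. Ebp, the smallest rise, measured 151, 162, 184 and 251 CPM in the chow-fed mice and 363, 380.1, 349 and 354 CPM in the SC-435-fed mice. Even for Ebp the lowest SC-435-fed mouse stood above chow-fed replicate 4.

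**Figure D2:**
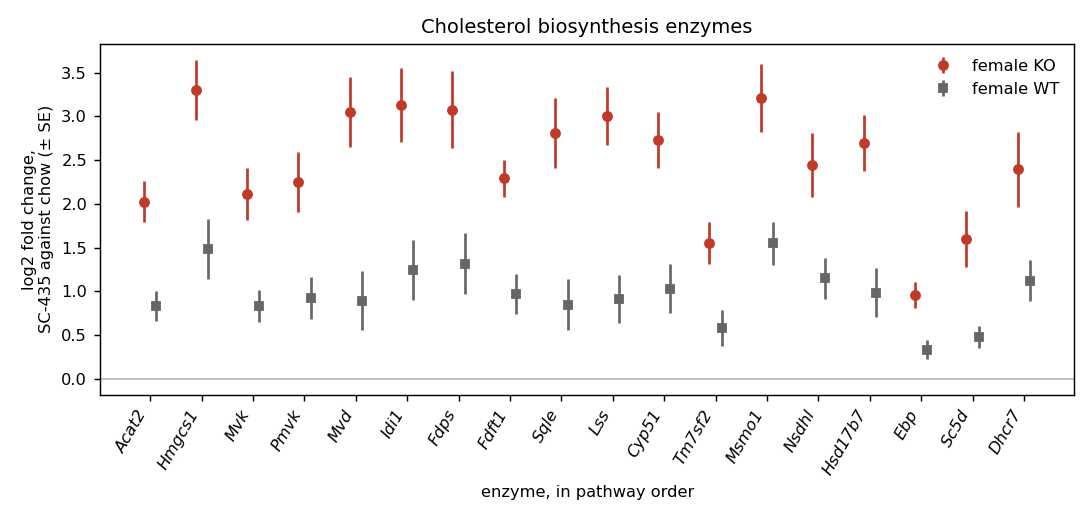
Log2 fold change of each cholesterol biosynthesis enzyme, SC-435 against chow, with its standard error, in pathway order along the horizontal axis; circles are female KO mice and squares female WT mice, 4 mice per diet. All 18 circles lie above 0, from 0.95 for Ebp to 3.30 for Hmgcs1, and each lies above the square of the same enzyme.

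SREBP2 acts at promoters together with the factor NF-Y, and the letters of both were searched in RefSeq promoter stretches (GRCm38.p6), on either strand. The NF-Y letters CCAAT stood in the 150 bases before the start of 14 of the 15 enzymes that had a stretch, all but Acat2, and in 31.2% of the 11454 tested genes with a stretch. The SREBP letters TCACNCCAC stood in 1 of the 15, Hmgcs1, and in 1.49% of tested genes, when 250 bases before and 50 after the start were searched. The 150-base search was set after the longer one had been seen. The 5 enzymes with the smallest adjusted p that had both a stretch and CCAAT are shown, 5′ to 3′ on the strand of the gene, with TCACNCCAC and CCAAT of either strand (ATTGG on the opposite one) in capitals.
Hmgcs1, chr13:119690201-119690350, plus strand: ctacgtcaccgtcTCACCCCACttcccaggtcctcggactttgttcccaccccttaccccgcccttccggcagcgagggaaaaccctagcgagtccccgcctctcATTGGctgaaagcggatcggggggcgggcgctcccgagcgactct
Lss, chr10:76531455-76531604, plus strand: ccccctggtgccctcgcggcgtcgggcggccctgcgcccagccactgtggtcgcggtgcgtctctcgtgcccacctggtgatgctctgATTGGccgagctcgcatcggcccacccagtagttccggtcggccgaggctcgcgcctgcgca
Cyp51, chr5:4104698-4104847, minus strand: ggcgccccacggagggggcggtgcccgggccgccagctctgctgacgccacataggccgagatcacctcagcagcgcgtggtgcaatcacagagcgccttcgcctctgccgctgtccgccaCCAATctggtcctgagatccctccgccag
Hsd17b7, chr1:169969206-169969355, minus strand: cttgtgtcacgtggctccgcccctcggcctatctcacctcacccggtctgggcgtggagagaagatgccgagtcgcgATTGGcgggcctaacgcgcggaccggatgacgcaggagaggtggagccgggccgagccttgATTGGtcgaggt
Msmo1, chr8:64733579-64733728, minus strand: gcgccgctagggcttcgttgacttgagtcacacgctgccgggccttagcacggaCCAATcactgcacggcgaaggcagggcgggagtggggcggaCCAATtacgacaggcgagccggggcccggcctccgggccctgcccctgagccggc
Hmgcs1, Lss and Cyp51 held CCAAT 1 time each and Hsd17b7 and Msmo1 held 2 copies each. A match of letters is a description and does not show binding.

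The genes around the pathway moved in both directions. Of 21 genes of SREBP control and sterol handling 20 were tested, and the median was -0.09. Of the 20, 4 rose and 5 fell, beside 8.56% and 9.23% of all genes. Srebf2, which encodes SREBP2, measured 87.1, 90.7, 85.1 and 123 CPM in the chow-fed mice and 219, 207, 206 and 204 CPM in the SC-435-fed mice (log2 fold change 1.12 ± 0.12, adjusted p = 0.00129). Its escort Scap had a log2 fold change of 1.13 ± 0.12 (adjusted p = 0.00125). Insig2, a protein that holds SREBP in the endoplasmic reticulum, measured 259, 304, 347 and 199 CPM in the chow-fed mice and 147, 137, 137 and 114 CPM in the SC-435-fed mice (log2 fold change -1.05 ± 0.16, adjusted p = 0.00365). Insig2 went opposite to Srebf2, whereas the related Insig1 went the same way, at log2 fold changes of 1.32 to 1.91 over the alternative settings. The cholesterol exporter Abcg1 had -1.04 ± 0.17 (adjusted p = 0.00502) and the HDL receptor Scarb1 -1.202 ± 0.25 (adjusted p = 0.0116). Scarb1 measured 456, 447, 313 and 173 CPM in the chow-fed mice and 159, 152, 149 and 142 CPM in the SC-435-fed mice, with chow-fed replicate 4 near the treated mice. Srebf1, the lipogenic relative, had -0.45 ± 0.19 (adjusted p = 0.135) and overlapped between the diets.

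Bile acid synthesis was led by the first enzyme of the classic pathway and by the 12-hydroxylase that sets the share of cholic acid. Of 17 synthesis and conjugation genes 16 were tested and 8 rose, beside 8.56% of all genes, with a median log2 fold change of 0.34. The number that rose was 4 to 5 without any 1 of chow replicates 1 and 3 and SC-435 replicates 1, 2 and 3. Cyp7a1, the rate-limiting enzyme (ENSMUSG00000028240, chr4:6265612-6275633 of mm10, minus strand), measured 9.08, 25.9, 102 and 110.3 CPM in the chow-fed mice and 410.2, 781, 535 and 955 CPM in the SC-435-fed mice (log2 fold change 3.45 ± 0.69, adjusted p = 0.00993). Chow-fed replicates 1 and 2 lay below replicates 3 and 4, and all 4 lay below the lowest treated mouse. Cyp8b1, the 12-hydroxylase (ENSMUSG00000050445, chr9:121914356-121916305 of mm10, minus strand), measured 9.25, 2.80, 14.2 and 69.0 CPM in the chow-fed mice and 609.6, 835, 777 and 825 CPM in the SC-435-fed mice (log2 fold change 5.0003 ± 0.85, adjusted p = 0.00575), a mean 32.0-fold higher. The alternative pathway had smaller fold changes, with Cyp27a1 at 0.82 ± 0.10 (adjusted p = 0.0015) and Cyp7b1 at 1.04 ± 0.22 (adjusted p = 0.0116). Cyp27a1 measured 364, 356, 409 and 445 CPM in the chow-fed mice and 693, 681, 691 and 709 CPM in the SC-435-fed mice, with no overlap. Akr1d1, which reduces the sterol ring, had 0.57 ± 0.13 (adjusted p = 0.0179) and did not pass without either of SC-435 replicates 2 and 3. Cyp2a12, the murine 7-hydroxylase of secondary bile acids, had 0.16 ± 0.10 (adjusted p = 0.31) and overlapped.

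Transport genes went both ways. Of 14 genes 13 were tested, and 3 rose and 3 fell, 23.1% each beside 8.56% and 9.23% of all genes. The number that rose was 1 without SC-435 replicate 2 and 5 without chow replicate 4. Slc10a1, the main uptake carrier NTCP, measured 307, 261, 347 and 594 CPM in the chow-fed mice and 746, 764, 752 and 706 CPM in the SC-435-fed mice (log2 fold change 0.98 ± 0.22, adjusted p = 0.0164), and did not pass without SC-435 replicate 2. Slc51b, a subunit of the basolateral exporter OST that FXR drives, measured 2.59, 4.07, 1.24 and 1.199 CPM in the chow-fed mice and 0.0968, 0.310, 0.133 and 0.0939 CPM in the SC-435-fed mice (log2 fold change -3.81 ± 0.54, adjusted p = 0.00287). The treated libraries held 4 to 13 reads of it. Abcb1a, an efflux pump raised in cholestasis, measured 28.1, 32.8, 14.3 and 21.2 CPM in the chow-fed mice and 7.89, 11.3, 10.4 and 7.79 CPM in the SC-435-fed mice (log2 fold change -1.36 ± 0.24, adjusted p = 0.00645). Abcc4, a further basolateral exporter, went the opposite way at 8.46, 10.8, 9.92 and 9.84 CPM in the chow-fed mice and 19.7, 23.2, 23.8 and 15.2 CPM in the SC-435-fed mice (log2 fold change 1.07 ± 0.15, adjusted p = 0.00258). None of these 3 overlapped between the diets. The canalicular export pump Abcb11 had -0.20 ± 0.09 (adjusted p = 0.169) and did not pass.

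Among the 10 sensing genes and nuclear receptors tested of 12, 3 rose (30.0%, beside 8.56% of all genes) and 0 fell. Nr1h4 measured 67.4, 68.2, 82.4 and 88.2 CPM in the chow-fed mice and 124, 147, 124 and 122 CPM in the SC-435-fed mice (log2 fold change 0.76 ± 0.11, adjusted p = 0.00319). Nr1i3, the xenobiotic receptor CAR, measured 32.5, 24.8, 15.3 and 26.9 CPM in the chow-fed mice and 41.9, 43.5, 46.6 and 45.3 CPM in the SC-435-fed mice (log2 fold change 0.84 ± 0.19, adjusted p = 0.0146). The third was the FGF15 co-receptor Klb, at 0.59 ± 0.17 (adjusted p = 0.0398), which overlapped and did not pass without any 1 of chow replicates 1, 2 and 3 and SC-435 replicates 1, 2 and 3. Nr0b2, the repressor SHP induced by FXR, measured 57.9, 38.5, 32.5 and 24.5 CPM in the chow-fed mice and 34.0, 10.3, 14.4 and 29.7 CPM in the SC-435-fed mice and did not pass (log2 fold change -0.79 ± 0.37, adjusted p = 0.165). Its chow-fed and treated mice overlapped, since treated replicates 1 and 4 lay within the chow range.

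**Figure D3:**
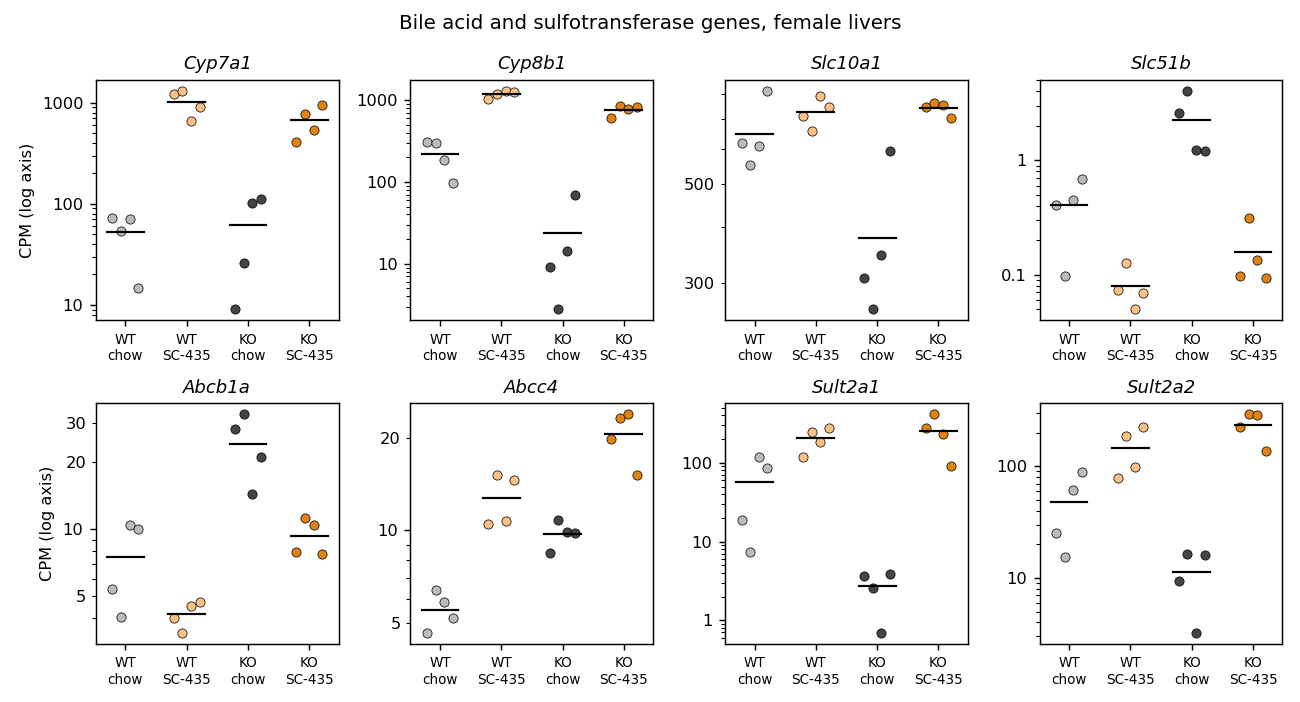
CPM on a log axis in each female liver for 8 bile acid and sulfotransferase genes, with a point for each mouse and a line at the mean of 4; the groups are WT and KO, each on chow or SC-435. In the KO groups no chow-fed mouse overlaps an SC-435-fed one in any panel, and for Cyp8b1 and Sult2a1 the KO chow mice lie below all other mice.

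Among the conjugating enzymes, those of sulfation had the highest median. Of 19 sulfotransferase and sulfate donor genes 16 were tested and 12 rose, 75.0% beside 8.56% of all genes, with a median of 2.08. The SULT2A enzymes sulfate bile acids and steroids, and their genes are near-identical copies whose reads could be shared, so that the split among them is uncertain. Sult2a2 measured 9.43, 16.4, 3.23 and 16.2 CPM in the chow-fed mice and 226, 291, 288 and 136 CPM in the SC-435-fed mice (log2 fold change 4.38 ± 0.48, adjusted p = 0.00125). Sult2a5 measured 1.69, 0.785, 0.462 and 0.474 CPM in the chow-fed mice and 37.3, 58.9, 24.1 and 19.3 CPM in the SC-435-fed mice (log2 fold change 5.33 ± 0.48, adjusted p = 0.000795). Sult2a3 measured 0.0201, 0.403, 0 and 0.250 CPM in the chow-fed mice and 1.84, 10.4, 4.66 and 0.657 CPM in the SC-435-fed mice (log2 fold change 4.70 ± 0.9996, adjusted p = 0.0129), and did not pass with limma's voom and quality weights. Outside that family, Sult1b1, which acts on thyroid hormone and phenols, measured 6.35, 10.23, 10.7 and 23.2 CPM in the chow-fed mice and 42.8, 49.0, 40.8 and 41.8 CPM in the SC-435-fed mice (log2 fold change 1.79 ± 0.32, adjusted p = 0.00691). Sult3a2 measured 0.0603, 0.0403, 0 and 0.799 CPM in the chow-fed mice and 6.10, 4.85, 7.19 and 3.38 CPM in the SC-435-fed mice (log2 fold change 4.68 ± 0.79, adjusted p = 0.00563). Sult2a3 and Sult3a2 had no read in chow replicate 3, so that their folds rest on few reads. The synthases of the sulfate donor, Papss1 and Papss2, had -0.26 ± 0.13 and 0.41 ± 0.17 and did not pass (adjusted p = 0.202 and 0.118).

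The other conjugating and oxidising families rose in part. Of UDP-glucuronosyltransferase, glutathione S-transferase and xenobiotic cytochrome P450 genes 36.8%, 44.4% and 30.6% rose, beside 8.56% of all genes. Of 19 UDP-glucuronosyltransferase genes tested of 19, 7 rose and 1 fell (median 0.38), and the number that rose was 3 to 4 without any 1 of chow replicates 1, 2 and 3 and SC-435 replicates 1, 2 and 3. Ugdh, which makes the glucuronic acid donor, measured 150.1, 173, 157 and 135 CPM in the chow-fed mice and 339, 367, 312 and 320.4 CPM in the SC-435-fed mice (log2 fold change 1.13 ± 0.09, adjusted p = 0.000578) and had the smallest adjusted p of the list. Ugt3a2 had a log2 fold change of 0.96 ± 0.16 (adjusted p = 0.00575), and Ugt1a6a, which shares exons with the other UGT1A genes, 0.86 ± 0.17 (adjusted p = 0.00885). Of 18 glutathione S-transferase genes of 18, 8 rose and 0 fell (median 0.52), and the number that rose was 3 to 5 without any 1 of chow replicates 1 and 2 and SC-435 replicates 1, 2 and 3 and 13 without chow replicate 4. Gsta1 measured 1.53, 3.66, 4.03 and 4.15 CPM in the chow-fed mice and 14.5, 18.9, 22.2 and 8.57 CPM in the SC-435-fed mice (log2 fold change 2.27 ± 0.35, adjusted p = 0.00396). Gstm4 had 1.40 ± 0.24 (adjusted p = 0.00608). Both families hold close copies that may share reads.

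Of 36 xenobiotic cytochrome P450 genes tested of 37, 11 rose and 1 fell (median 0.69), and the number that rose was 7 without any 1 of chow replicates 1 and 2 and SC-435 replicates 2 and 3 and 23 without chow replicate 4. Cyp1a2, an oxidase of caffeine and aromatic amines, measured 418, 428, 465 and 672 CPM in the chow-fed mice and 877, 1115, 1112 and 999.8 CPM in the SC-435-fed mice (log2 fold change 1.05 ± 0.16, adjusted p = 0.00433). Cyp2a5, a coumarin hydroxylase, measured 398, 462, 245 and 719 CPM in the chow-fed mice and 1277, 1570.4, 1786 and 1244 CPM in the SC-435-fed mice (log2 fold change 1.69 ± 0.28, adjusted p = 0.0056). Cyp2g1 had 1.76 ± 0.22 (adjusted p = 0.00171), Cyp2c39 1.83 ± 0.31 (adjusted p = 0.00575) and Cyp2c54 1.13 ± 0.19 (adjusted p = 0.00519). None of these 5 overlapped between the diets. Cyp2f2 had the only fall, at -0.32 ± 0.10 (adjusted p = 0.0496), and did not pass without any 1 of chow replicates 1, 2, 3 and 4 and SC-435 replicates 1, 2, 3 and 4.

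Female-biased liver genes and genes of the growth hormone axis, which sets liver sex bias, moved in both directions. Of 21 female-biased genes tested of 21, 7 rose and 2 fell, 33.3% and 9.52% beside 8.56% and 9.23% of all genes (median 0.97). The number that rose was 3 to 4 without any 1 of chow replicates 1, 2 and 3 and SC-435 replicates 1, 2 and 3. It was 13 without chow replicate 4. Sult2a1 is on this list too. Cyp2c69 measured 102, 63.5, 225 and 411 CPM in the chow-fed mice and 1136, 688, 781 and 1077 CPM in the SC-435-fed mice (log2 fold change 2.20 ± 0.50, adjusted p = 0.016). Prom1, a membrane protein also used as a marker of ductular cells, measured 48.5, 74.2, 40.5 and 27.7 CPM in the chow-fed mice and 4.72, 4.08, 5.49 and 5.94 CPM in the SC-435-fed mice (log2 fold change -3.23 ± 0.28, adjusted p = 0.000594), without overlap. Of 17 growth hormone genes tested of 17, 1 rose and 4 fell, 5.88% and 23.5% beside 8.56% and 9.23% of all genes (median -0.16). Cish, a feedback inhibitor of STAT5 signalling, measured 41.5, 15.6, 37.0 and 36.3 CPM in the chow-fed mice and 3.10, 6.11, 5.01 and 2.35 CPM in the SC-435-fed mice (log2 fold change -2.97 ± 0.36, adjusted p = 0.00164). Socs3, which inhibits STAT3 signalling, measured 20.8, 11.8, 13.8 and 9.34 CPM in the chow-fed mice and 5.88, 5.35, 4.87 and 4.84 CPM in the SC-435-fed mice (log2 fold change -1.41 ± 0.22, adjusted p = 0.00421). Mup20, a urinary protein of many near-identical copies, measured 76.3, 135, 267 and 77.4 CPM in the chow-fed mice and 16.8, 27.8, 22.2 and 47.8 CPM in the SC-435-fed mice (log2 fold change -2.26 ± 0.44, adjusted p = 0.00914). Socs2 had -1.34 ± 0.26 (adjusted p = 0.00951) and did not pass when the 16 female libraries were fitted together.

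Genes of fatty acid and triglyceride synthesis rose in part, 65.0% beside 8.56% of all genes, and the count changed with 1 mouse left out. Their median log2 fold change lay between 0.78 and 1.42 in the alternative settings. Of 20 genes tested of 20, 13 rose and 0 fell (median 0.96), and the number that rose was 3 to 8 without any 1 of chow replicates 1, 2 and 3 and SC-435 replicates 1, 2 and 3. Without chow replicate 4 it was 18. Acss2, which makes cytosolic acetyl-CoA from acetate, measured 59.4, 66.0, 119 and 454 CPM in the chow-fed mice and 886, 1144, 1171 and 963 CPM in the SC-435-fed mice (log2 fold change 2.58 ± 0.60, adjusted p = 0.0174). Gpam, the first enzyme of triglyceride assembly, measured 106, 121, 110.0 and 223 CPM in the chow-fed mice and 304, 356, 379 and 302 CPM in the SC-435-fed mice (log2 fold change 1.26 ± 0.23, adjusted p = 0.00734). The citrate carrier Slc25a1 had 0.78 ± 0.14 (adjusted p = 0.00697). Fasn, fatty acid synthase, measured 296, 401, 332 and 1174 CPM in the chow-fed mice and 1579.7, 1688, 1885 and 1375 CPM in the SC-435-fed mice (log2 fold change 1.57 ± 0.40, adjusted p = 0.0255). It did not pass without any 1 of chow replicates 1, 2 and 3 and SC-435 replicates 1, 2 and 3. Its chow-fed replicate 4 stood far above the other chow-fed mice and still below all treated mice.

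Of genes of fat oxidation 16.7% rose, beside 8.56% of all genes, and 0 fell, beside 9.23%. Of 24 oxidation and PPARalpha genes tested of 24, 4 rose and 0 fell (median 0.26), and the number that rose was 2 without SC-435 replicate 2. Counted in either direction, 16.7% passed beside 17.8% of all genes. Cyp4a14, an omega-hydroxylase under PPARalpha, measured 376, 303, 315 and 506 CPM in the chow-fed mice and 622, 942, 695 and 672 CPM in the SC-435-fed mice (log2 fold change 0.97 ± 0.19, adjusted p = 0.00892). Acadm, a dehydrogenase of medium chains, had 0.43 ± 0.08 (adjusted p = 0.00939). Of 14 lipid droplet genes tested of 16, 4 rose and 2 fell, 28.6% and 14.3% beside 8.56% and 9.23% of all genes (median 0.25). The number that fell was 0 to 1 without any 1 of chow replicates 1, 2 and 3 and SC-435 replicates 1, 2, 3 and 4. Fitm1, which helps droplets to form, measured 0.643, 1.59, 3.02 and 4.87 CPM in the chow-fed mice and 13.7, 15.1, 17.5 and 12.9 CPM in the SC-435-fed mice (log2 fold change 2.57 ± 0.46, adjusted p = 0.00691). Pparg, a driver of fat storage, had 0.90 ± 0.14 (adjusted p = 0.00444). Of 21 genes of lipoprotein handling tested of 21, 3 rose and 2 fell, 14.3% and 9.52% beside 8.56% and 9.23% of all genes (median 0.02). The number that rose was 6 without chow replicate 4. Lpl, a lipase that is scarce in adult hepatocytes, measured 126, 179, 111 and 44.5 CPM in the chow-fed mice and 36.6, 25.4, 24.4 and 30.9 CPM in the SC-435-fed mice (log2 fold change -1.97 ± 0.34, adjusted p = 0.00589). Pltp, the phospholipid transfer protein, measured 29.1, 37.7, 30.9 and 37.8 CPM in the chow-fed mice and 63.8, 92.6, 89.8 and 75.5 CPM in the SC-435-fed mice (log2 fold change 1.25 ± 0.14, adjusted p = 0.00127).

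Most genes of hepatocytes near the central vein rose, and some of those near the portal tract fell. Of pericentral genes 71.4% rose and of periportal genes 40.0% fell, beside 8.56% and 9.23% of all genes. Of 14 pericentral genes tested of 14, 10 rose and 0 fell (median 0.59). Rhbg, an ammonium transporter, measured 2.85, 3.30, 4.09 and 3.995 CPM in the chow-fed mice and 8.74, 10.5, 9.22 and 7.70 CPM in the SC-435-fed mice (log2 fold change 1.35 ± 0.15, adjusted p = 0.00138). Tbx3, a target of WNT signalling, measured 23.3, 14.3, 16.1 and 16.6 CPM in the chow-fed mice and 38.6, 42.7, 38.7 and 52.5 CPM in the SC-435-fed mice (log2 fold change 1.298 ± 0.16, adjusted p = 0.00169). Lhpp had 1.13 ± 0.15 (adjusted p = 0.00258) and the glutamate carrier Slc1a2 0.96 ± 0.19 (adjusted p = 0.00924). Of 15 periportal genes tested of 15, 1 rose and 6 fell (median 0.05), and the number that fell was 3 without any 1 of chow replicates 1 and 2 and SC-435 replicates 2 and 4. Cdh1, E-cadherin, measured 152, 151, 133 and 88.0 CPM in the chow-fed mice and 47.6, 40.2, 40.7 and 44.3 CPM in the SC-435-fed mice (log2 fold change -1.59 ± 0.16, adjusted p = 0.001). The protease Ctsc measured 193, 211, 206 and 215 CPM in the chow-fed mice and 118, 95.8, 119 and 112 CPM in the SC-435-fed mice (log2 fold change -0.89 ± 0.09, adjusted p = 0.001). Hal, a histidine-degrading enzyme, had -0.58 ± 0.11 (adjusted p = 0.00794). Cdh1 is also made by bile duct cells and Ctsc by macrophages, and markers of both fell in these mice, as given below.

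The acute phase proteins, which hepatocytes secrete in response to inflammatory signals, fell in large part. Of 25 tested of 25, 14 fell and 1 rose (median -0.44), beside 9.23% of all genes that fell, and the number that fell was 7 to 9 without any 1 of chow replicates 1 and 2 and SC-435 replicates 1, 2 and 3. Saa2 measured 50.5, 90.5, 23.3 and 76.7 CPM in the chow-fed mice and 9.53, 10.7, 20.6 and 19.6 CPM in the SC-435-fed mice (log2 fold change -1.99 ± 0.40, adjusted p = 0.0105). Saa1, its near-identical neighbour, had -1.83 ± 0.37 (adjusted p = 0.0105), and reads of the pair may be shared. Lcn2, an iron-binding protein of injured liver and neutrophils, measured 55.5, 139, 54.6 and 22.2 CPM in the chow-fed mice and 6.92, 9.84, 9.86 and 15.0 CPM in the SC-435-fed mice (log2 fold change -2.69 ± 0.48, adjusted p = 0.00675). Lbp, which hands lipopolysaccharide to CD14, measured 226, 193, 167 and 101 CPM in the chow-fed mice and 65.9, 54.8, 73.3 and 83.6 CPM in the SC-435-fed mice (log2 fold change -1.298 ± 0.22, adjusted p = 0.00575). Itih3 had -0.91 ± 0.14 (adjusted p = 0.00444). In Lbp, chow-fed replicate 4 was the nearest to the treated mice.

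Innate sensing and Fc receptor genes, mostly of myeloid cells, fell in large part. Of 22 tested of 24, 16 fell (72.7%, beside 9.23% of all genes) and 0 rose (median -1.14). Clec7a, a receptor for beta-glucans, measured 19.0, 39.4, 26.3 and 11.4 CPM in the chow-fed mice and 4.43, 3.92, 4.37 and 6.93 CPM in the SC-435-fed mice (log2 fold change -2.28 ± 0.34, adjusted p = 0.00366). Cd14, the lipopolysaccharide co-receptor, measured 23.8, 28.1, 12.4 and 8.07 CPM in the chow-fed mice and 3.32, 4.34, 4.08 and 3.97 CPM in the SC-435-fed mice (log2 fold change -2.20 ± 0.34, adjusted p = 0.00437). Tyrobp, the signalling adaptor of many myeloid receptors, had -1.19 ± 0.21 (adjusted p = 0.00641), the kinase Syk -1.17 ± 0.20 (adjusted p = 0.00554) and Tlr13 -1.51 ± 0.27 (adjusted p = 0.00694). None of these 5 overlapped between the diets.

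Of 15 CC chemokine and receptor genes tested of 25, 7 fell and 1 rose, 46.7% and 6.67% beside 9.23% and 8.56% of all genes (median -1.25). The number that fell was 4 without SC-435 replicate 2. Ccl2, which draws monocytes, measured 2.83, 2.54, 2.18 and 0.999 CPM in the chow-fed mice and 0.702, 0.668, 0.586 and 0.634 CPM in the SC-435-fed mice (log2 fold change -1.72 ± 0.31, adjusted p = 0.00694). Ccl6 measured 12.8, 24.0, 15.1 and 10.5 CPM in the chow-fed mice and 5.23, 4.61, 5.09 and 7.07 CPM in the SC-435-fed mice (log2 fold change -1.50 ± 0.24, adjusted p = 0.005). The one that rose was Ackr2, a scavenging receptor for CC chemokines, at 2.29, 2.17, 3.84 and 2.72 CPM in the chow-fed mice and 7.02, 10.22, 9.35 and 10.9 CPM in the SC-435-fed mice (log2 fold change 1.77 ± 0.21, adjusted p = 0.00154). Ccl22 had the largest fall at -2.97 ± 0.62 (adjusted p = 0.0121), although the diets overlapped. Of 14 CXC genes tested of 20, 4 fell (28.6%, beside 9.23% of all genes) and 0 rose (median -0.73). The number that fell was 8 without chow replicate 4. Cxcl14 measured 6.77, 9.69, 8.62 and 4.57 CPM in the chow-fed mice and 2.30, 2.55, 2.40 and 2.70 CPM in the SC-435-fed mice (log2 fold change -1.57 ± 0.21, adjusted p = 0.00258). Cxcl10, a target of interferon, had -1.10 ± 0.34 (adjusted p = 0.0522), and Cxcl1, a neutrophil attractant, -1.21 ± 0.31 (adjusted p = 0.0246). Both overlapped between the diets, and Cxcl1 did not pass without any 1 of chow replicates 1 and 2 and SC-435 replicates 1, 2 and 3.

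Of 22 genes of IL-1 and TNF signalling tested of 26, 14 fell (63.6%, beside 9.23% of all genes) and 0 rose (median -0.86). The number that fell was 6 to 8 without any 1 of chow replicate 2 and SC-435 replicates 1, 2 and 3. Il1rn, the IL-1 receptor antagonist, measured 13.5, 17.7, 8.202 and 8.39 CPM in the chow-fed mice and 2.35, 4.06, 3.86 and 4.44 CPM in the SC-435-fed mice (log2 fold change -1.69 ± 0.28, adjusted p = 0.00532). Relb, an NF-kB subunit, had -1.36 ± 0.21 (adjusted p = 0.00434). The adhesion molecules Vcam1 and Icam1 had -1.37 ± 0.23 (adjusted p = 0.00575) and -1.03 ± 0.18 (adjusted p = 0.00655). Il1b, IL-1 beta itself, measured 8.401, 9.16, 4.91 and 3.12 CPM in the chow-fed mice and 4.26, 2.29, 3.30 and 2.35 CPM in the SC-435-fed mice with overlap and did not pass (log2 fold change -1.07 ± 0.33, adjusted p = 0.0513). Of 24 interferon response genes, all 24 listed, 10 fell (41.7%, beside 9.23% of all genes) and 0 rose (median -0.36). The number that fell was 5 without any 1 of chow replicates 2 and 3 and SC-435 replicates 1, 2 and 3. The antiviral oligoadenylate synthetases Oas1a, Oas2 and Oas3 had -1.42 ± 0.22, -1.24 ± 0.20 and -1.47 ± 0.27 (adjusted p = 0.00444, 0.005 and 0.00727), and Mx1 had -1.52 ± 0.27 (adjusted p = 0.00714).

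The genes of antigen presentation by MHC class II fell, 85.7% beside 9.23% of all genes, and fewer passed without certain single mice. Their median log2 fold change lay between -1.35 and -0.93 in the alternative settings. Of 14 genes tested of 14, 12 fell and 0 rose (median -1.07), and the number that fell was 1 to 7 without any 1 of chow replicates 1, 2 and 3 and SC-435 replicates 1, 2 and 3. Cd86, a costimulatory molecule, measured 5.31, 7.43, 7.26 and 6.07 CPM in the chow-fed mice and 2.95, 3.20, 2.85 and 4.67 CPM in the SC-435-fed mice (log2 fold change -0.92 ± 0.19, adjusted p = 0.0103) and did not overlap. Ciita, the master regulator of class II, measured 7.34, 8.48, 9.42 and 3.87 CPM in the chow-fed mice and 1.96, 3.17, 2.37 and 4.53 CPM in the SC-435-fed mice (log2 fold change -1.26 ± 0.31, adjusted p = 0.021). For Ciita, treated replicate 4 lay above chow-fed replicate 4, and the gene did not pass without any 1 of chow replicate 2 and SC-435 replicates 1, 2 and 3.

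**Figure D4:**
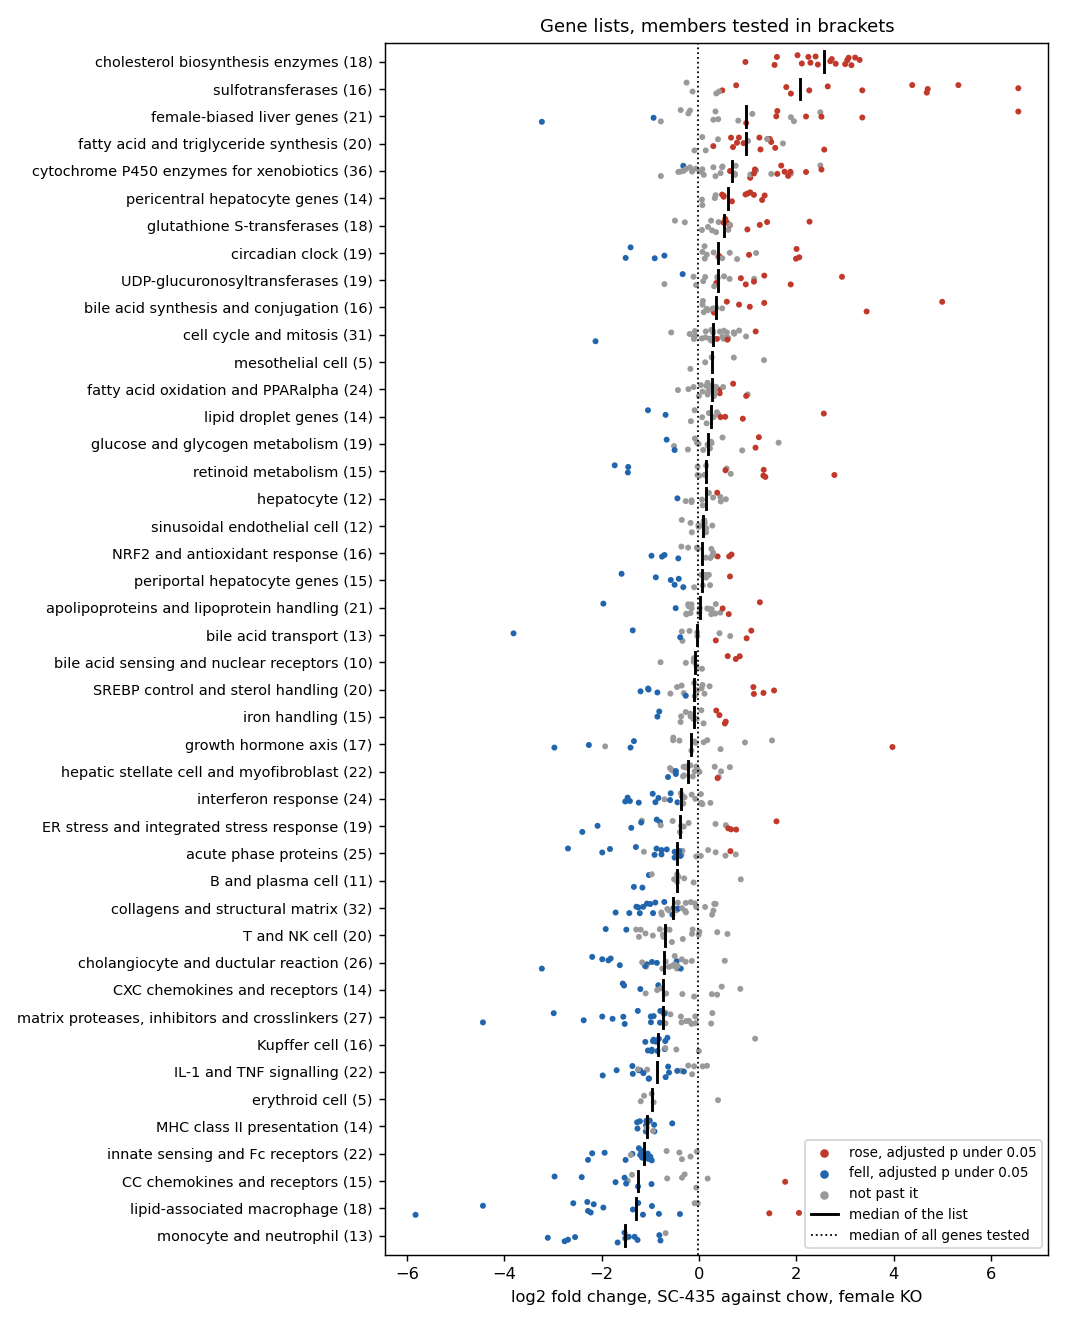
Log2 fold change, SC-435 against chow in female KO livers, of each tested member of the gene lists with 5 or more tested members, given in brackets; red points rose and blue points fell at an adjusted p under 0.05, a bar marks the median of the list, and the dotted line the median of all genes. Cholesterol enzymes have the highest median at 2.57, and monocyte and neutrophil markers the lowest at -1.52.

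Markers of macrophages fell. Of lipid-associated macrophage, Kupffer cell, and monocyte and neutrophil markers 77.8%, 75.0% and 92.3% fell, beside 9.23% of all genes. Of 18 markers of lipid-associated macrophages, all 18 listed, 14 fell and 2 rose (median -1.305), and their summed level was 1816 to 2457 CPM on chow and 1519 to 1602 CPM with SC-435. Trem2, the lipid receptor that defines these cells (ENSMUSG00000023992, chr17:48346401-48354147 of mm10, plus strand), measured 4.68, 9.42, 6.25 and 3.30 CPM in the chow-fed mice and 0.799, 0.812, 0.719 and 1.57 CPM in the SC-435-fed mice (log2 fold change -2.59 ± 0.36, adjusted p = 0.00266). Mmp12, macrophage elastase, measured 9.33, 30.5, 8.12 and 8.09 CPM in the chow-fed mice and 0.557, 0.668, 0.826 and 0.516 CPM in the SC-435-fed mice, 21.7-fold lower on average (log2 fold change -4.44 ± 0.50, adjusted p = 0.00138). Lgals3 had -2.16 ± 0.30 (adjusted p = 0.0026) and Cd68, a lysosomal protein of all macrophages, -1.15 ± 0.15 (adjusted p = 0.00236). Of the 2 that rose, Atp6v0d2, a subunit of the proton pump, measured 12.8, 17.9, 6.44 and 11.2 CPM in the chow-fed mice and 48.8, 53.7, 41.1 and 57.2 CPM in the SC-435-fed mice (log2 fold change 2.06 ± 0.25, adjusted p = 0.00172), and the other was the fatty acid binding protein Fabp5, at 1.45 ± 0.32 (adjusted p = 0.0154). Gpnmb is on this list too, and Mmp12 belongs to the matrix proteases below.

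Of 16 Kupffer cell markers, all 16 listed, 12 fell and 0 rose (median -0.84), and the number that fell was 7 without any 1 of SC-435 replicates 2 and 3. They summed to 1022 to 1338 CPM on chow and 610.2 to 861 CPM with SC-435. Cd5l, secreted by resident macrophages, measured 152, 225, 190.1 and 159 CPM in the chow-fed mice and 67.9, 70.1, 96.9 and 114 CPM in the SC-435-fed mice (log2 fold change -1.05 ± 0.18, adjusted p = 0.00657). The complement genes C1qa, C1qb and C1qc had -0.88 ± 0.15, -0.97 ± 0.18 and -0.97 ± 0.13 (adjusted p = 0.00532, 0.00793 and 0.00254), and Slc40a1, the iron exporter, -0.85 ± 0.12 (adjusted p = 0.00258). Of 13 monocyte and neutrophil markers tested of 20, 12 fell and 0 rose (median -1.52), and the list summed to 176 to 427 CPM on chow and 74.9 to 111 CPM with SC-435. Lyz2, lysozyme of myeloid cells, measured 160.3, 242, 171 and 130.2 CPM in the chow-fed mice and 56.5, 50.2, 60.8 and 77.5 CPM in the SC-435-fed mice (log2 fold change -1.52 ± 0.19, adjusted p = 0.00195). The neutrophil alarmins S100a8 and S100a9 had -3.11 ± 0.40 and -2.55 ± 0.44 (adjusted p = 0.00226 and 0.00601).

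Lymphocyte markers had few reads in all 8 livers. The 20 T and NK cell markers summed to 9.49 to 20.1 CPM on chow and 6.61 to 18.0 CPM with SC-435. Beside 9.23% of all genes, a similar share of these markers fell, 2 of 20 tested (median -0.70). These were Ncr1, at -1.49 ± 0.35 (adjusted p = 0.0192), and Il7r, at -1.92 ± 0.45 (adjusted p = 0.019), which did not pass without any 1 of SC-435 replicates 1, 2 and 3, nor Ncr1 without chow replicate 1 and Il7r without chow replicate 2. B and plasma cell markers summed to 12.9 to 27.0 CPM and 10.02 to 14.3 CPM. Of 11 tested 3 fell, 27.3% beside 9.23% of all genes (median -0.45), or 1 without any 1 of chow replicate 1 and SC-435 replicates 1 and 3. Igkc, the kappa light chain, measured 4.64, 2.98, 4.62 and 2.60 CPM in the chow-fed mice and 1.43, 2.12, 1.94 and 1.74 CPM in the SC-435-fed mice (log2 fold change -1.03 ± 0.23, adjusted p = 0.015).

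Structural matrix genes fell in part. Of 32 tested of 32, 14 fell (43.8%, beside 9.23% of all genes) and 0 rose (median -0.54). The number that fell was 3 to 9 without any 1 of chow replicates 2 and 3 and SC-435 replicates 1, 2 and 3. Col1a1, a chain of type I collagen (ENSMUSG00000001506, chr11:94936224-94953042 of mm10, plus strand), measured 68.3, 103, 133 and 40.6 CPM in the chow-fed mice and 24.998, 23.6, 23.2 and 32.7 CPM in the SC-435-fed mice (log2 fold change -1.71 ± 0.30, adjusted p = 0.00659). Chow-fed replicate 4 was the lowest of its group and lay just above the highest treated mouse, also replicate 4. Eln, elastin, measured 13.8, 20.2, 22.3 and 8.54 CPM in the chow-fed mice and 6.03, 6.28, 7.41 and 7.49 CPM in the SC-435-fed mice (log2 fold change -1.25 ± 0.25, adjusted p = 0.0106). Col6a3 had -0.94 ± 0.19 (adjusted p = 0.0106). Of 27 proteases, inhibitors and crosslinkers tested of 29, 14 fell (51.9%, beside 9.23% of all genes) and 0 rose (median -0.75). The number that fell was 9 without any 1 of chow replicate 2 and SC-435 replicates 1, 2 and 3. Timp1, an inhibitor of matrix proteases, measured 1.39, 2.90, 1.43 and 0.924 CPM in the chow-fed mice and 0.194, 0.167, 0.0799 and 0.376 CPM in the SC-435-fed mice (log2 fold change -2.99 ± 0.47, adjusted p = 0.00447). Mmp15, a membrane-bound protease, measured 87.0, 90.5, 109 and 57.8 CPM in the chow-fed mice and 34.1, 33.3, 35.6 and 39.9 CPM in the SC-435-fed mice (log2 fold change -1.26 ± 0.16, adjusted p = 0.00207). Tgm2, which crosslinks matrix proteins, measured 178, 232, 189 and 161 CPM in the chow-fed mice and 109, 105, 113 and 108 CPM in the SC-435-fed mice (log2 fold change -0.80 ± 0.11, adjusted p = 0.00236).

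Stellate cells make much of this matrix. Of their genes 13.6% fell and 4.55% rose, beside 9.23% and 8.56% of all genes. Of 22 stellate cell and myofibroblast genes, all 22 listed, 3 fell and 1 rose (median -0.22), the number that fell was 6 without chow replicate 4, and their sums overlapped, at 579 to 795 CPM and 627 to 665 CPM. Tgfb1, the main fibrogenic cytokine, measured 20.96, 24.4, 22.8 and 19.7 CPM in the chow-fed mice and 14.4, 14.8, 16.6 and 17.1 CPM in the SC-435-fed mice (log2 fold change -0.48 ± 0.09, adjusted p = 0.00995). Acta2, the actin of activated stellate cells, measured 0.925, 2.17, 3.82 and 3.77 CPM in the chow-fed mice and 3.15, 4.54, 3.33 and 3.05 CPM in the SC-435-fed mice with overlap and did not pass (log2 fold change 0.41 ± 0.37, adjusted p = 0.48). Ecm1, which was the one that rose, had 0.38 ± 0.07 (adjusted p = 0.00633).

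Bile duct markers fell in part, 46.2% of those tested beside 9.23% of all genes. Of 26 cholangiocyte and ductular genes tested of 27, 12 fell and 0 rose (median -0.72), and the number that fell was 4 to 7 without any 1 of chow replicates 1, 2 and 3 and SC-435 replicates 1, 2 and 3. Their summed level was 827 to 1464 CPM on chow and 704 to 775 CPM with SC-435. Tspan8, a membrane protein of epithelia, measured 17.3, 17.0, 11.3 and 5.49 CPM in the chow-fed mice and 2.78, 3.17, 1.84 and 3.31 CPM in the SC-435-fed mice (log2 fold change -2.20 ± 0.34, adjusted p = 0.004). The transcription factor Elf3 had -1.82 ± 0.36 (adjusted p = 0.00995). Krt19, a keratin of bile ducts, measured 4.92, 8.50, 5.22 and 3.82 CPM in the chow-fed mice and 3.65, 2.60, 2.82 and 3.19 CPM in the SC-435-fed mice (log2 fold change -0.87 ± 0.23, adjusted p = 0.0296). It did not pass without any 1 of chow replicate 2 and SC-435 replicates 1, 2, 3 and 4. The 12 hepatocyte markers summed to 76025 to 97006 CPM on chow and 101746 to 116591 CPM with SC-435. Alb among them measured 39712, 44718, 56549 and 59541 CPM in the chow-fed mice and 77002, 72583, 65156 and 78454 CPM in the SC-435-fed mice (log2 fold change 0.55 ± 0.18, adjusted p = 0.0548). The hepatocyte sums did not overlap between the diets, and albumin took 4.50 to 6.20% of reads on chow and 6.35 to 7.91% with SC-435. The part of this difference in the lower shares of immune and matrix genes was not tested.

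Markers of the remaining cell types mostly did not pass. Of 12 sinusoidal endothelial markers 0 rose and 0 fell (median 0.09; sums of 502 to 657 CPM and 511 to 652 CPM), and likewise 0 of 5 erythroid, 0 of 5 mesothelial and 0 of 1 skeletal muscle markers tested passed edgeR's test. At an unadjusted p under 0.05 there were 0 sinusoidal, 1 erythroid (Hba-a2), 1 mesothelial (Upk3b) and 0 muscle genes, and DESeq2 called 1 mesothelial and 0 erythroid and sinusoidal genes. The erythroid sums were 24.2 to 88.3 CPM and 24.6 to 61.2 CPM, the mesothelial 1.65 to 8.05 CPM and 4.24 to 12.7 CPM and the muscle at most 1.27 CPM, with 2 of 6 muscle markers at 0. Of 11 pancreatic acinar markers 5 were at 0 in all 8 livers, and of 2 tested Cela2a measured 0.301, 0.423, 0.650 and 0.499 CPM in the chow-fed mice and 0.944, 0.716, 1.49 and 0.845 CPM in the SC-435-fed mice (log2 fold change 1.10 ± 0.32, adjusted p = 0.0427), which did not pass without any 1 of chow replicates 1 and 2 and SC-435 replicates 1, 2, 3 and 4. Of 2 adipocyte markers tested Car3, which hepatocytes also make, measured 790.5, 794, 885 and 1985 CPM in the chow-fed mice and 3065, 3359, 2890.2 and 2819 CPM in the SC-435-fed mice (log2 fold change 1.45 ± 0.29, adjusted p = 0.00972). Fabp4 had -0.37 ± 0.26 (adjusted p = 0.343). Of 12 hepatocyte markers, all 12 listed, 1 rose and 1 fell, 8.33% each beside 8.56% and 9.23% of all genes (median 0.14). The number that rose was 0 without any 1 of chow replicates 1, 2 and 3 and SC-435 replicates 1, 2 and 3 and 3 without chow replicate 4, and the number that fell was 0 without any 1 of chow replicates 1, 2 and 3 and SC-435 replicates 1, 2, 3 and 4.

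Of 31 cell cycle genes, all 31 listed, 3 rose (9.68%) and 1 fell (median 0.29), beside 8.56% and 9.23% of all genes. Mcm5, a helicase subunit of DNA replication, measured 1.73, 2.56, 3.25 and 4.17 CPM in the chow-fed mice and 5.20, 6.73, 5.94 and 8.22 CPM in the SC-435-fed mice (log2 fold change 1.17 ± 0.25, adjusted p = 0.014). The one that fell was Cdkn1a, the cell cycle inhibitor p21, at 6.03, 16.6, 26.8 and 3.45 CPM in the chow-fed mice and 3.97, 2.43, 2.82 and 2.77 CPM in the SC-435-fed mice (log2 fold change -2.13 ± 0.54, adjusted p = 0.0242). Its groups overlapped and it did not pass without any 1 of chow replicates 2 and 3 and SC-435 replicates 1, 2, 3 and 4.

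The response was set against that of WT females and of male KO mice, 4 mice per diet each. With SC-435, 108 genes were called higher and 65 lower by more than 2-fold in WT females, 0.686% and 0.413% of those tested. The response differed between KO and WT females in 445 of 16882 genes (2.64%) by the interaction term of an edgeR fit over the female mice of both genotypes at an adjusted p under 0.05, with the KO response higher in 145 (0.859%) and lower in 300 (1.78%). An unadjusted p under 0.05 was reached by 3355. Leaving out KO chow replicate 4 gave 1644 genes, and leaving out KO chow replicates 2 and 3 and SC-435 replicates 1, 2 and 3 in turn gave 99, 197, 75, 68 and 146. Of the 344 genes called higher in KO females 37 had a larger response than in WT females by this test. Of the 604 called lower 153 had one, and 0 of either had a smaller one. These genes were picked for a large change in the same KO libraries, which favours a larger KO response. The split therefore cannot be read as a result.

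The lists with most members whose response differed were those of macrophages, innate sensing and interferon. Among members tested, the KO response was lower in 10 of 18 lipid-associated macrophage markers, 11 of 22 innate sensing genes, 12 of 24 interferon genes and 6 of 16 Kupffer cell markers. Over all genes it was lower in 1.78%. The lists were chosen with earlier results of these data known, which may favour such counts. The interferon list had a median log2 fold change of 0.36 in WT and -0.36 in KO females, so a rise in WT mice is part of its difference. Lyz2 measured 62.2 ± 9.77 CPM on chow and 63.6 ± 1.92 CPM with SC-435 in WT females (SD, n = 4) against 176 ± 47.4 and 61.2 ± 11.7 CPM in KO females, an interaction of -1.55 ± 0.23 on the log2 scale (adjusted p = 0.0141). The peptide carrier Slc15a3 had -1.31 ± 0.17 (adjusted p = 0.0065), the kinase Stk10 -1.42 ± 0.20 (adjusted p = 0.0113) and the interferon gene Samd9l -1.001 ± 0.15 (adjusted p = 0.0141). With SC-435 mean Stk10 went from 4.55 to 7.78 CPM in WT and from 11.7 to 7.47 CPM in KO females. Mean Samd9l went from 18.5 to 23.9 CPM in WT and from 39.8 to 25.7 CPM in KO females. On chow Fam19a2 measured, in KO against WT females, 0.108 ± 0.0491 against 4.65 ± 1.75 CPM, and with SC-435 14.4 ± 1.81 against 18.9 ± 1.69 CPM, an interaction of 5.01 ± 0.40 (adjusted p = 1.42e-05). Of the 18 cholesterol enzymes 4 had a higher KO response, beside 0.859% of all genes. The median log2 fold change of these enzymes was 0.95 in WT and 2.57 in KO females. Cyp7a1 reached 1024 ± 299 CPM in WT and 670.3 ± 244 CPM in KO females with SC-435, with an interaction of -0.83 ± 0.83 (adjusted p = 0.623).

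In male KO mice 301 genes were called higher and 730 lower by more than 2-fold, 1.88% and 4.57% of those tested. The response of the liver to SC-435 in female and male KO mice differed in 36 of 17069 genes (0.211%), 17 higher (0.0996%) and 19 lower (0.111%) in females, while 2131 reached an unadjusted p under 0.05. Without chow replicate 4 of the females there were 185 genes, without chow replicates 1, 2 and 3 there were 16, 21 and 8, and without SC-435 replicates 1 to 4 there were 7, 6, 8 and 8. With the female and male KO libraries scaled together, Cyp4a14 went from 19.96 ± 8.76 to 532 ± 97.9 CPM in males (SD, n = 4) and from 379 ± 98.1 to 745 ± 145 CPM in females, an interaction of -3.76 ± 0.41 (adjusted p = 0.00145). Plin4, a lipid droplet coat protein, had -3.03 ± 0.40 (adjusted p = 0.00466) and Gpat4, an acyltransferase, -1.196 ± 0.15 (adjusted p = 0.00466). Mean Plin4 went from 4.08 to 1.97 CPM in females and from 4.39 to 17.4 CPM in males. Mean Gpat4 went from 172 to 138 CPM in females and from 171 to 314 CPM in males. Smoc2, a matrix-associated protein, had 2.60 ± 0.33 (adjusted p = 0.00466) and Dpysl2 1.76 ± 0.24 (adjusted p = 0.00466). Mean Dpysl2 went from 3.25 to 6.41 CPM in females and from 3.74 to 2.17 CPM in males, and mean Smoc2 from 14.5 to 9.68 CPM in males. Smoc2 measured 9.69, 11.5, 10.8 and 10.7 CPM in the chow-fed mice and 39.9, 55.7, 36.7 and 38.1 CPM in the SC-435-fed mice in the females, without overlap.

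Slc10a2, the drug target, was also read in liver, at 23.5, 41.2, 13.7 and 43.6 CPM in the chow-fed mice and 20.2, 16.8, 19.2 and 27.7 CPM in the SC-435-fed mice with overlap (log2 fold change -0.54 ± 0.32, adjusted p = 0.268).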

How the data were processed

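Whole-liver messenger RNA of 32 mice was sequenced, and the read counts per gene as deposited by the authors were used, unnormalized. The submitters' processing notes name HISAT2 2.0.5, featureCounts 1.5.0-p3, DESeq2 1.20.0 and the build mm10. The setting for strand is not given in the sources used here, so reads of overlapping and antisense genes may be mixed, and near-identical copies may share reads. The FPKM columns and the authors' own comparisons (fold changes and p-values) were not used.

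Groups followed the labels. Nothing in them says more than that the mice were separate samples, so p-values measure the spread between these samples. Genes were filtered with filterByExpr over the 8 libraries, scaled by TMM and tested with edgeR 4.0.16 (R 4.3.3) by its quasi-likelihood test. P-values were adjusted over the 16332 genes by the Benjamini-Hochberg method, with a threshold of 0.05. Called genes also passed a 2-fold change. Differences in response were the interaction terms of fits with 16 libraries. CPM used TMM factors over the 16 female libraries, so that the fitted fold and the ratio of mean CPM differ slightly. Each library held 38453252 to 44771350 reads.

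The gene lists, the members and the rule for naming were chosen with earlier results of these data known. The rule took the 10 largest rises and falls of called, protein-coding genes that averaged 50 counts or more and whose diets did not overlap, in each list up to 5 members with the smallest adjusted p and its largest rise and fall, the genes the study measured, genes that head pathways, and the 5 protein-coding genes with the smallest adjusted p for each interaction. The text names part of these. Some genes of sterol metabolism are not reported here and were left out of the lists. The remaining cholesterol enzymes and Fabp5, Papss1, Papss2 and Srebf1 were named after their values were seen. Promoter stretches came from RefSeq (GRCm38.p6). Alternatives were median-of-ratios or library-size scaling, DESeq2 1.42.0, limma 3.58.1 with voom and quality weights, a replicate block, other filters, a joint fit and leaving out each mouse. On simulated counts with 50 genes changed at each fold over 16425 genes, the fit recovered 50 and 47 genes at a log2 change of 2 and -2, and 34 and 35 at 1 and -1. In that run 10 unchanged genes also passed. Every gene was given the same dispersion and no mouse stood apart, unlike in these livers. The numbers recovered therefore do not give the power of the comparison.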

Additional observations from a re-analysis of the deposited data

Results flagged for a closer look

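In 43 of the 518 pairs of a gene chosen by the rule and a diet group (8.30%), 1 mouse lay apart from the other 3 by Dixon's test. Chance gives this in about 1 in 20 independent groups of normal values. Here the test was run on CPM without a log, and the pairs share the same 8 mice. The 8.30% therefore cannot be set against that rate. Chow-fed replicate 4 was that mouse in 20 of them. Genes named above other than Insig1 made up 330 of these pairs, of which 24 had a mouse apart, chow-fed replicate 4 in 12. In those 12 it was above the other chow-fed mice, toward the SC-435 group, at 90.1 CPM for Acat2, 454 for Acss2, 1985 for Car3, 1174 for Fasn, 223 for Gpam, 78.9 for Hsd17b7, 94.0 for Lss, 87.0 for Rdh11, 175 for Slc1a2, 123 for Srebf2, 0.799 for Sult3a2 and 316 for Ugt3a2. Chow-fed replicate 2 was apart for Mmp12, at 30.5 CPM.

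SC-435-fed replicate 4 was apart in 8 of the 24. It was above its group for C1qb (62.3 CPM), Ccl22 (0.493 CPM), Clec7a (6.93 CPM), Trem2 (1.57 CPM) and Ugt1a6a (21.6 CPM), and below it for Acat2 (206 CPM), Cpe (0.493 CPM) and Pparg (11.7 CPM). SC-435-fed replicate 2 was above its group for Nr1h4 (147 CPM) and Smoc2 (55.7 CPM), and replicate 1 below it for Mx1 (1.16 CPM).

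The response to SC-435 differed between KO and WT females, by the interaction term on the log2 scale, by 5.01 for Fam19a2, -1.31 for Slc15a3, -1.42 for Stk10, -1.55 for Lyz2 and -1.001 for Samd9l. Between female and male KO mice it differed by -3.76 for Cyp4a14, 2.60 for Smoc2, -1.20 for Gpat4, -3.03 for Plin4 and 1.76 for Dpysl2. All 10 had an adjusted p under 0.05 by edgeR's quasi-likelihood test.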

How the results depend on the processing

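Of the 219 named genes past an adjusted p of 0.05, 0 reversed under any alternative and 56 lost the threshold when 1 mouse was left out. With 1 mouse left out, 583 to 1505 genes were called at more than 2-fold (256 to 586 higher and 325 to 919 lower), 1287 to 4403 passed at any fold (648 to 2232 higher and 639 to 2171 lower), 68 to 1644 differed in response by genotype (22 to 790 higher and 46 to 854 lower) and 6 to 185 by sex (2 to 123 higher and 4 to 62 lower). The highest number in each came without chow replicate 4. With limma's voom and quality weights 1464 genes were called (531 higher and 933 lower), and 4846 passed at any fold (2393 and 2453). With library size as the only scaling 929 were called lower, 826 were higher and 3202 lower at any fold, and the interactions were 947 for genotype (838 lower) and 14 for sex (7 and 7). DESeq2 gave interactions of 1205 for genotype (530 and 675) and 339 for sex (189 and 150). The cause was not tested.

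With a replicate block 1902 genes passed at any fold (902 lower), and interactions were 215 for genotype (80 and 135) and 6 for sex (2 and 4). The 748 genes called at more than 2-fold under the block compare with 948 without it. The numbers pair nothing in the labels, and correlations of same-numbered chow and SC-435 mice were 0.12, -0.0068, -0.028 and -0.16, so not every mouse correlated best with its own number. The 7 genes that reversed did not pass the threshold with all mice. With library size as the only scaling the log2 fold change was -0.044 for Mylpf, -0.0046 for Oit3 and -0.051 for Wt1. With 1 mouse left out it ran from -0.51 to 0.012 for Fabp4, -1.49 to 0.029 for Hbb-bt, -0.037 to 0.53 for Lrrn4, -0.58 to 0.22 for Msln, -0.15 to 0.27 for Mylpf and -0.26 to 0.53 for Wt1.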

Other observations

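Further hepatocyte programmes moved in both directions. Of 19 ER stress and integrated stress genes tested of 20, 4 rose and 6 fell (median -0.39). That is 21.1% and 31.6%, beside 8.56% and 9.23% of all genes. The number that rose was 2 without any 1 of chow replicate 2 and SC-435 replicates 2, 3 and 4, and the number that fell was 2 to 3 without any 1 of chow replicates 1 and 2 and SC-435 replicates 1, 2, 3 and 4. Creld2, induced by unfolded proteins, measured 180.1, 161, 40.2 and 33.2 CPM in the chow-fed mice and 24.4, 17.6, 17.4 and 19.0 CPM in the SC-435-fed mice (log2 fold change -2.40 ± 0.51, adjusted p = 0.0129). Chow-fed replicates 1 and 2 stood far above replicates 3 and 4, and all lay above the treated mice. Asns, asparagine synthetase, measured 1.31, 1.53, 1.301 and 0.524 CPM in the chow-fed mice and 2.23, 3.68, 3.33 and 4.86 CPM in the SC-435-fed mice (log2 fold change 1.59 ± 0.32, adjusted p = 0.0106). Chac1, which degrades glutathione, had -2.09 ± 0.39 (adjusted p = 0.00794) and the factor Atf5 0.66 ± 0.10 (adjusted p = 0.00444). Of 16 NRF2 and antioxidant genes tested of 18, 3 rose and 4 fell (median 0.06), beside 8.56% and 9.23% of all genes. The number that rose was 1 without SC-435 replicate 3, and the number that fell was 1 to 2 without any 1 of chow replicates 2 and 3 and SC-435 replicates 1, 2, 3 and 4. Gclc, the catalytic subunit of glutathione synthesis, measured 439.8, 398, 406 and 325 CPM in the chow-fed mice and 258, 234, 225 and 206 CPM in the SC-435-fed mice (log2 fold change -0.76 ± 0.11, adjusted p = 0.00306).

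Retinoid, clock, iron and glucose genes were counted beside the 8.56% of all genes that rose and the 9.23% that fell. Of 15 retinoid genes tested of 16, 5 rose and 3 fell (median 0.15), and the number that fell was 1 without any 1 of chow replicate 2 and SC-435 replicate 3. Rdh11, a retinal reductase, measured 26.6, 27.3, 32.7 and 87.0 CPM in the chow-fed mice and 318, 300.0, 298 and 278 CPM in the SC-435-fed mice (log2 fold change 2.78 ± 0.36, adjusted p = 0.00228), with chow-fed replicate 4 above its group. Aldh1a1, which makes retinoic acid, had 1.33 ± 0.18 (adjusted p = 0.00262), and Dhrs9 measured 48.4, 40.2, 21.3 and 20.3 CPM in the chow-fed mice and 9.61, 10.3, 8.50 and 10.7 CPM in the SC-435-fed mice (log2 fold change -1.73 ± 0.27, adjusted p = 0.004). Of 19 clock genes, all 19 listed, 5 rose and 4 fell (median 0.39). Those that rose numbered 3 without SC-435 replicate 2 and 10 without chow replicate 4, and the number that fell was 2 without any 1 of chow replicate 1 and SC-435 replicate 2. Cry1, a repressor of the clock, measured 22.1, 12.3, 10.9 and 9.51 CPM in the chow-fed mice and 6.22, 5.01, 4.26 and 3.73 CPM in the SC-435-fed mice (log2 fold change -1.51 ± 0.27, adjusted p = 0.0069), and Ciart, another repressor, measured 0.703, 0.503, 0.420 and 1.02 CPM in the chow-fed mice and 2.47, 2.94, 2.32 and 2.84 CPM in the SC-435-fed mice (log2 fold change 2.01 ± 0.27, adjusted p = 0.00258). The hours of killing are not given in the sources used here. Of 15 iron genes, all 15 listed, 4 rose and 2 fell (median -0.11). Hamp, the hormone hepcidin, measured 548, 606, 714 and 433 CPM in the chow-fed mice and 362, 406, 227 and 305 CPM in the SC-435-fed mice (log2 fold change -0.82 ± 0.19, adjusted p = 0.0171), and Fth1, the ferritin heavy chain, 1084, 1152, 1098 and 1227 CPM in the chow-fed mice and 1672, 1831, 1594 and 1473 CPM in the SC-435-fed mice (log2 fold change 0.53 ± 0.10, adjusted p = 0.00813). Of 19 glucose and glycogen genes, all 19 listed, 2 rose and 2 fell (10.5% each, median 0.19). Those that rose numbered 1 without any 1 of SC-435 replicates 1 and 4 and 5 without chow replicate 4, and the number that fell was 0 to 1 without any 1 of chow replicates 1 and 2 and SC-435 replicates 1, 2, 3 and 4. Pfkfb1, which sets glycolytic flux, had 1.23 ± 0.26 (adjusted p = 0.0124).

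The AP-1 letters TGANTCA, on either strand, stood in the promoter stretches (250 bases before to 50 after the start) of 54 of 419 genes called lower with SC-435 (12.9%), of 14 of 232 called higher (6.03%) and of 6.63% of the 11454 tested genes with a stretch. They stood in 5 of 14 lipid-associated macrophage genes with a stretch (35.7%) and in 5 of 17 matrix protease, inhibitor and crosslinker genes (29.4%). These shares are descriptions, and no binding was measured.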
